A study of Mus musculus with 12 samples.

Results

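Mouse brain tumours driven by YAP1-FAM118B were compared with tumours driven by YAP1-MAMLD1-dR3R1 in bulk RNA sequencing data. Each group had 3 libraries, so 6 of the 12 samples of the series entered the comparison, and they were chosen by the fusion named in the sample titles. Both kinds of tumour had arisen after RCAS virus, an avian retroviral vector, was injected into the brain, and whole tumours were frozen for total RNA. The virus of the YAP1-FAM118B group carried YAP1 joined to FAM118B, a protein of nuclear Cajal bodies. That of the YAP1-MAMLD1-dR3R1 group carried YAP1 joined to MAMLD1, a mastermind-like co-activator, in a form marked dR3R1, a suffix that the labels do not explain. A further group, naive, was normal cortex of mice that had received no injection, and its values are given as a background. Neither age nor strain, receptor transgene or promoter is given in the sources used here. The extraction protocol in the labels speaks of cultured cells, which differs from the frozen tumours of the design text. Whether replicates were separate mice is not said in the labels. The p-values therefore measure only the spread between deposited samples, which may be technical, and that spread was pooled over the 12 libraries of the series.

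YAP1 is a transcriptional co-activator with no DNA-binding domain of its own, and it acts mainly through the TEAD transcription factors. The kinases of the Hippo pathway, LATS1 and LATS2 above all, phosphorylate it and hold it in the cytoplasm. Fusions of YAP1 with MAMLD1 and with FAM118B are known from ependymomas of the cerebrum in children. Both of these fusions keep the TEAD-binding part of YAP1. What the dR3R1 form changes is not given, so the partner and that form cannot be told apart here. The comparison describes where the tumours differ.

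The 6 libraries held 19850220 to 24281068 counts, and 3 counts corresponded to 0.117 to 0.145 CPM, counts scaled to a TMM-adjusted library total of 1e+06. CPM compares libraries for a gene, not levels between genes, since it is not divided by length. Across the 16364 genes tested, log2 CPM correlated at 0.933 to 0.974 between YAP1-FAM118B libraries, at 0.905 to 0.955 between YAP1-MAMLD1-dR3R1 libraries and at 0.793 to 0.922 between the groups. With naive cortex, YAP1-FAM118B libraries correlated at 0.81 to 0.91 and YAP1-MAMLD1-dR3R1 libraries at 0.62 to 0.76. The YAP1-FAM118B libraries were thus closer to naive cortex. How much normal cortex each sample held, and its part in the differences below, was not tested. The first principal component of the 6 libraries held 64.6% of their variance. YAP1-FAM118B libraries lay at 73.2, 84.5 and 70.8 on it and YAP1-MAMLD1-dR3R1 libraries at −16.2, −77.1 and −135. Several libraries stood apart from their group. YAP1-FAM118B replicate 2 held both Xist, the RNA of the inactive X chromosome (162 CPM), and Ddx3y, a Y-linked helicase gene (29.9 CPM), while each of the other 5 held no more than 1 of them above 0.0443 CPM. Of those 5, replicate 1 of YAP1-MAMLD1-dR3R1 and of YAP1-FAM118B held Xist (492 and 320 CPM). The remaining ones held Ddx3y, at 75.5 to 85.8 CPM. YAP1-FAM118B replicate 2 also lacked the high osteoclast and collagen levels of the other YAP1-FAM118B libraries. YAP1-MAMLD1-dR3R1 replicate 1 lay nearest to the YAP1-FAM118B libraries and held 2155 CPM of Ttr, the transthyretin made by choroid plexus, against 1.01 and 8.87 CPM in replicates 2 and 3. Results are therefore also given with single libraries left out. Where 6 counts follow a count of genes in parentheses, they are the counts without YAP1-FAM118B replicates 1, 2 and 3 and then without YAP1-MAMLD1-dR3R1 replicates 1, 2 and 3.

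The tumours differed in 4293 of 16364 genes tested, 26.2% (edgeR quasi-likelihood test, Benjamini-Hochberg adjusted p under 0.05), and such genes are called below. Of these, 2085 (12.7%) were higher in YAP1-FAM118B tumours and 2208 (13.5%) lower. These shares of all genes tested are the background for each count of list members below. A fold change of at least 2 was reached by 1252 of the higher genes (7.65% of those tested) and 1195 of the lower (7.30%), and the median log2 fold change over all genes tested was −0.05. The libraries of the groups did not overlap for 4215 of the called genes and for 7984 (48.8%) of all genes tested. The count of calls depended on single libraries (1753, 1932, 3157, 4676, 1666 and 1798). In all, 1199 genes, 705 higher and 494 lower, were called in every one of these 6 fits as well. No called gene changed sign in any of them. At an unadjusted p under 0.05 there were 6909 genes (42.2%).

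**Figure D1:**
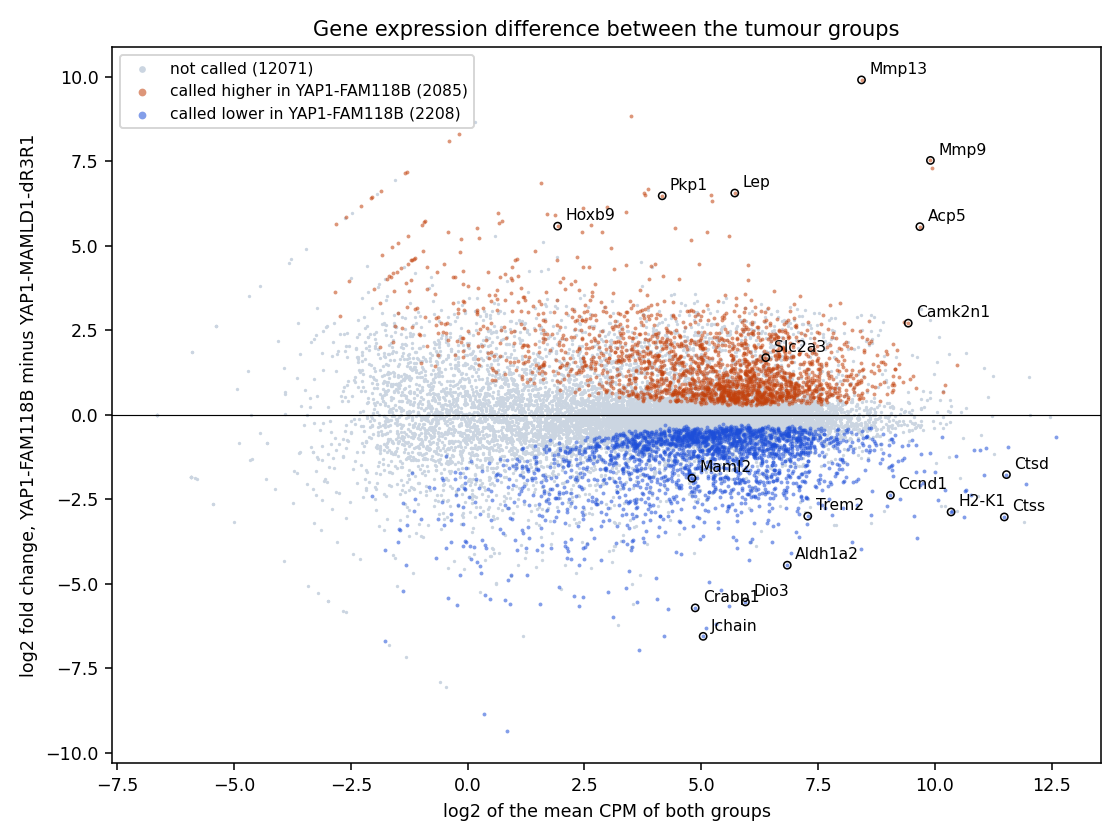
Log2 fold change of each gene tested, YAP1-FAM118B minus YAP1-MAMLD1-dR3R1, against the log2 of its mean CPM over both groups; colours mark the 2085 genes called higher and the 2208 called lower, and circles mark genes named in the text. Mmp13 has a log2 fold change of 9.91 and Ctss, at the lower right, one of −3.02.

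**Figure D2:**
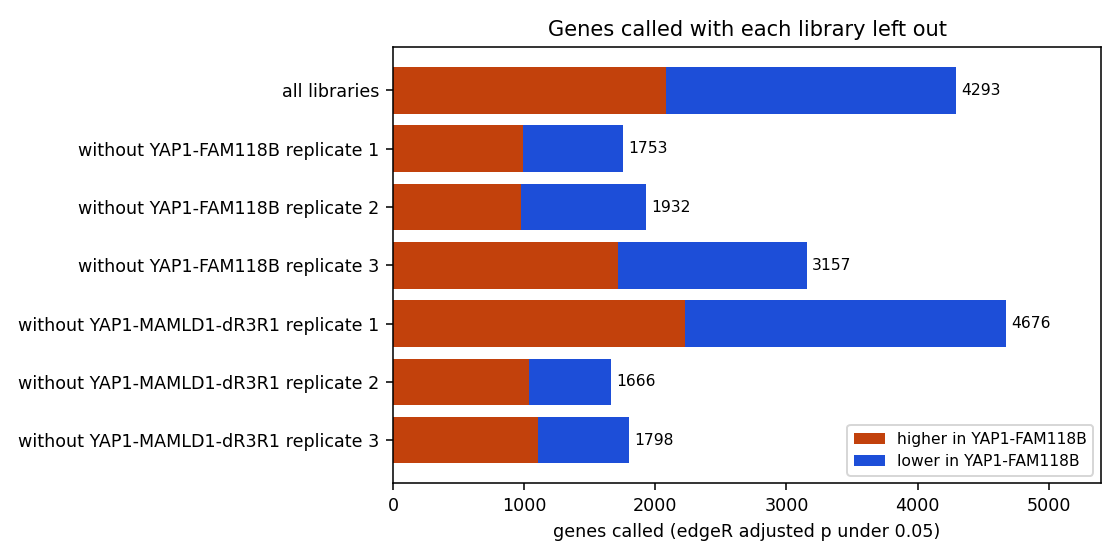
Number of genes called (edgeR adjusted p under 0.05) with all libraries and with each of the 6 libraries left out, split by direction. The count is highest, 4676, without YAP1-MAMLD1-dR3R1 replicate 1 and lowest, 1666, without YAP1-MAMLD1-dR3R1 replicate 2.

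When the change itself was tested against 2-fold (edgeR glmTreat), 8 genes passed (0.0489%), and they are named here after their values were seen, apart from Ccnd1 and Dio3, which the naming rule had taken. Lower in YAP1-FAM118B tumours were Abca8a, Ccnd1, Cp, Dio3, Hpgds and P2ry14, and higher were Mgst3 and Scel. Cp encodes ceruloplasmin, the copper-carrying ferroxidase of plasma and astrocytes, and stood at 44.99, 37.02 and 43.03 CPM in YAP1-FAM118B replicates 1 to 3 and at 332, 1023 and 585 CPM in YAP1-MAMLD1-dR3R1 replicates 1 to 3. Hpgds, the prostaglandin D synthase of haematopoietic cells, stood at 20.2, 19.3 and 20.2 CPM against 73.7, 68.9 and 81.2 CPM. Scel encodes sciellin, a protein of the cornified envelope of epithelia, and stood at 98.7, 122 and 139 CPM against 9.12, 2.996 and 10.6 CPM. The groups were separated for each of the 3, with log2 fold changes of −3.96 ± 0.38 (SE), −1.91 ± 0.16 and 3.98 ± 0.40 (edgeR adjusted p of 0.00235, 0.00167 and 0.00253).

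The partner and driver genes were examined first, as a check of the labels. Fam118b (chromosome 9, 35216965 to 35267875, GRCm38) stood at 44.7, 31.4 and 59.1 CPM in YAP1-FAM118B libraries and at 22.1, 17.6 and 16.4 CPM in YAP1-MAMLD1-dR3R1 libraries. Every YAP1-FAM118B library was above all YAP1-MAMLD1-dR3R1 libraries, by 1.27 ± 0.26 (SE) on the log2 scale (edgeR adjusted p = 0.0111). Naive cortex held 16.8 ± 2.81 CPM (SD, n = 3). The YAP1-TFE3 tumours of the series, outside this comparison, held 51.2 ± 13.3 CPM (SD, n = 3). A raised Fam118b was thus not particular to the tumours named for it, and it does not settle the label. Mamld1 (chromosome X, 71050036 to 71156056) stood at 12.5, 18.2 and 11.2 CPM in YAP1-FAM118B libraries and 46.4, 13.8 and 24.4 CPM in YAP1-MAMLD1-dR3R1 libraries. These overlapped, and the difference of −1.01 ± 0.49 did not pass (edgeR adjusted p = 0.144). Yap1 (chromosome 9, 7931999 to 8004638) stood at 72.8, 58.5 and 98.8 CPM against 121, 63.4 and 82.03 CPM, also overlapping, with a difference of −0.21 ± 0.26 (edgeR adjusted p = 0.555). Without YAP1-MAMLD1-dR3R1 replicate 1 the differences were −0.45 for Mamld1 and 0.08 for Yap1. Whether reads of a viral transcript were counted on these mouse genes was not analysed here.

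Of 22 YAP/TEAD targets tested 4 (18.2%) were lower and none higher (2, 2, 2, 6, 1 and 1 called), against 26.2% of all genes, and the median log2 fold change was −0.06 against −0.05 for all genes. That median turned to 0.28 without YAP1-MAMLD1-dR3R1 replicate 1 and ranged down to −0.27, without YAP1-FAM118B replicate 3. Axl, a receptor tyrosine kinase that both YAP and macrophages are known for, stood at 366, 208 and 491 CPM in YAP1-FAM118B libraries and 757, 1025 and 922 CPM in YAP1-MAMLD1-dR3R1 libraries. All 3 YAP1-FAM118B libraries were below all YAP1-MAMLD1-dR3R1 libraries, at −1.34 ± 0.27 (SE) on the log2 scale (edgeR adjusted p = 0.0101, or 0.0566 without YAP1-MAMLD1-dR3R1 replicate 2). Lats2, Foxf2 and Gadd45a were the other lower members, at −1.10, −1.08 and −0.58, and each call ended without YAP1-MAMLD1-dR3R1 replicate 3 (edgeR adjusted p of 0.0941, 0.152 and 0.208). Without YAP1-FAM118B replicate 1 the adjusted p of Lats2 was 0.0679 and of Foxf2 0.124. Without YAP1-FAM118B replicate 2 that of Lats2 was 0.0691 and of Gadd45a 0.132. Without YAP1-FAM118B replicate 3 that of Foxf2 was 0.108 and of Gadd45a 0.107, and without YAP1-MAMLD1-dR3R1 replicate 2 they were 0.111 and 0.152.

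The classic YAP readouts Ankrd1, Ctgf and Cyr61, named after their values were seen, did not pass. Ankrd1, a muscle and YAP-responsive nuclear protein, stood at 230.1, 149 and 274 CPM in YAP1-FAM118B tumours and 258, 63.98 and 64.9 CPM in YAP1-MAMLD1-dR3R1 libraries, which overlapped because of YAP1-MAMLD1-dR3R1 replicate 1. Its log2 fold change was 0.76 ± 0.59 (SE; edgeR adjusted p = 0.355), with 0.305 CPM as the naive mean. For the secreted matricellular proteins Ctgf and Cyr61 the values were 0.70 ± 0.85 and 0.42 ± 0.47 (edgeR adjusted p of 0.56 and 0.524). The 250 bases before the transcript start of Ankrd1 and Axl are shown because these members are known targets of YAP, Axl with a call and Ankrd1 with none. They were read from RefSeq on GRCm38.p6, Ankrd1 at chr19:36119845-36120094 and Axl at chr7:25788734-25788983, both on the minus strand, 5′ to 3′. The RefSeq span of Axl, chr7:25756500-25788924, overlaps its window, which thus precedes a transcript start inside that span. Capitals mark the TEAD letters CATTCC searched on both strands, here present as the reverse complement.
Ankrd1: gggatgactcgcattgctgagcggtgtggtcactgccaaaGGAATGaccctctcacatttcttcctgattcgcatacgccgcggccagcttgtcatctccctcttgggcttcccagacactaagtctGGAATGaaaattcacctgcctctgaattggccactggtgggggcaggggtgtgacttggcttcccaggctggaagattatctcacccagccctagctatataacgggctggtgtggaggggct
Axl: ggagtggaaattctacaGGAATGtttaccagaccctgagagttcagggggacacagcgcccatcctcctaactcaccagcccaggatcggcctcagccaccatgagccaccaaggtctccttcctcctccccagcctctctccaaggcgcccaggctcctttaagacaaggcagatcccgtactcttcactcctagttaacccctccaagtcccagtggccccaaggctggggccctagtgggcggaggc
Among the 16 targets with an entry among the RefSeq promoters, 7 held the letters, 43.8%, against 14.4% of all 27025 genes. The list was chosen for known targets, so this share describes the list and not the comparison, and both groups of tumours share these promoters. A match is a description of the letters, not of binding.

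Hippo components and TEADs were called in 5 of 24 cases (20.8%), against 26.2% of all genes. Of the 24 members 4 were lower and 1 higher (2, 2, 4, 7, 1 and 1 called), with a median of −0.32, which was −0.15 and −0.53 without YAP1-FAM118B replicates 2 and 3 and −0.13 without YAP1-MAMLD1-dR3R1 replicate 1. Tjp1, a tight junction scaffold that binds YAP and TAZ, stood at 82.5, 109.7 and 73.1 CPM against 158, 146 and 169.8 CPM and was lower, at −0.84 ± 0.17 (edgeR adjusted p = 0.01). Mob1a, the co-activator of LATS kinases, and Stk3, the kinase MST2, were lower, at −1.13 and −0.56, and both calls ended without YAP1-FAM118B replicate 2 (edgeR adjusted p of 0.0589 and 0.0657) or YAP1-MAMLD1-dR3R1 replicate 2 (0.0685 and 0.0927 as the adjusted p) or 3 (0.0662 and 0.138). Mob1a also lost its call without YAP1-FAM118B replicate 1 (0.0559 as the adjusted p). Wwc2, a scaffold upstream of LATS, was the member called higher, by 0.87 ± 0.23 (edgeR adjusted p = 0.0259). The adjusted p of Wwc2 was 0.0577, 0.0723, 0.0673 and 0.0695 without YAP1-FAM118B replicates 1 and 3 and YAP1-MAMLD1-dR3R1 replicates 2 and 3. Among the TEADs, named after their values were seen, Tead1 had a difference of 0.13 ± 0.30 and Tead4 one of 0.90 ± 0.68 (edgeR adjusted p of 0.765 and 0.338).

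Several groups of immune genes were lower in YAP1-FAM118B tumours. Class I MHC molecules display peptides from inside a cell to cytotoxic T cells, with B2m as their common light chain. All 13 members tested of the class I presentation list were called lower (9, 8, 8, 13, 8 and 8), against 13.5% of all genes. Their median was −2.69. Of the 14 members listed, H2-Q7 had no count in the comparison. B2m (chromosome 2, 122147687 to 122153082) stood at 674, 538 and 506 CPM in YAP1-FAM118B replicates 1 to 3 and at 1408, 3710.2 and 3717 CPM in YAP1-MAMLD1-dR3R1 replicates 1 to 3, with 44.7 ± 2.44 CPM (SD, n = 3) in naive cortex. The groups did not overlap, YAP1-MAMLD1-dR3R1 replicate 1 being the closest to the others, and the difference was −2.36 ± 0.38 (SE; edgeR adjusted p = 0.00608). H2-K1, a class I heavy chain (chromosome 17, 33996012 to 34000619), stood at 405, 298 and 237 CPM against 918, 3180.4 and 2788 CPM, a difference of −2.87 ± 0.51 (edgeR adjusted p = 0.00769). H2 class I genes are near-identical copies, so the division of reads between them is uncertain. Tapbp, which helps to load peptides onto class I molecules, was lower, at −1.82 ± 0.31 (edgeR adjusted p = 0.00678). In bulk tissue fewer cells of a type and less RNA per cell cannot be told apart, here and in the lists that follow.

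Interferon-stimulated genes, the antiviral programme switched on by STAT and IRF factors, were below zero in all 26 members. Of these, 13 were called lower (6, 5, 5, 20, 4 and 4), 50% against 13.5% of all genes, and the median was −2.20. Bst2, which tethers budding virus particles (chromosome 8, 71534255 to 71537472), stood at 80.8, 67.8 and 46.9 CPM against 163, 343 and 339 CPM, with 4.29 as the naive mean. Its groups did not overlap and the difference was −2.11 ± 0.36 (SE; edgeR adjusted p = 0.00678). Stat2, the interferon signal transducer (chromosome 10, 128270498 to 128292853), stood at 48.97, 49.5 and 24.6 CPM against 77.1, 216 and 172 CPM, a difference of −1.92 ± 0.41 (edgeR adjusted p = 0.0121). The RNA sensors Ddx58 (RIG-I) and Ifih1 (MDA5) were lower, at −1.69 ± 0.30 and −2.17 ± 0.47 (edgeR adjusted p of 0.00752 and 0.0131).

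Sequences before the starts of B2m, Bst2 and Stat2 are shown because all 3 genes were called lower and hold the core of the interferon-stimulated response element. The windows are chr2:122147437-122147686 on the plus strand, chr8:71537473-71537722 on the minus strand and chr10:128270248-128270497 on the plus strand, in the same order, from RefSeq on GRCm38.p6. Capitals mark GAAA repeated after 2 bases of any kind, searched on both strands, which Bst2 holds as 2 overlapping matches and Stat2 as the reverse complement.
B2m: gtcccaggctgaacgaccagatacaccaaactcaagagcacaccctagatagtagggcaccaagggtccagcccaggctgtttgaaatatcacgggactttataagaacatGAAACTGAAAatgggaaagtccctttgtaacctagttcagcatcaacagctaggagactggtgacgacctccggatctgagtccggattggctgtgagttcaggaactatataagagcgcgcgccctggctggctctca
Bst2: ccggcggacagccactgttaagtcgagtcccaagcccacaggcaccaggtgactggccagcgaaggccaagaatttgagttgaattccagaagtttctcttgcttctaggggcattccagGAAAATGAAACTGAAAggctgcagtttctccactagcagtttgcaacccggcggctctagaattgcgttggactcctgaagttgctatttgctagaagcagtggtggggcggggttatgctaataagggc
Stat2: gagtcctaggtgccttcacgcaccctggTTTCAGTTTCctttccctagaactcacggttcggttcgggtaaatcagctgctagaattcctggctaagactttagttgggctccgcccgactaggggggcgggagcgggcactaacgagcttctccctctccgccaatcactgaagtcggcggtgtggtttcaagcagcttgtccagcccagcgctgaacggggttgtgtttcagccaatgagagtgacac
The match of B2m begins 139 bases before the start, those of Bst2 at 130 and 124 and that of Stat2 at 222. The letters were in 11 of 20 interferon-stimulated genes with an entry (55%), in 2 of 12 class I genes and in 1 of 9 class II genes, against 3.46% of all genes. The interferon list was chosen for its known response, so this share describes the list and not the comparison.

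Class II MHC molecules display peptides taken up from outside and are made by professional antigen-presenting cells and by activated microglia. All 12 members were below zero, with a median of −2.80. Of these, 6 were called lower (2, 2, 3, 6, 2 and 3), 50% against 13.5% of all genes. Ctss, cathepsin S, which trims the invariant chain in microglia and macrophages (chromosome 3, 95526786 to 95556405), stood at 627, 781 and 485 CPM against 3180.4, 5706 and 6459.6 CPM, with 51.9 ± 2.15 CPM (SD, n = 3) in naive cortex. It was lower in all YAP1-FAM118B libraries, by −3.02 ± 0.51 (SE; edgeR adjusted p = 0.00689). H2-Oa, a regulator of peptide loading found in B cells and dendritic cells, was lower, at −4.94 ± 0.99 (edgeR adjusted p = 0.0103), with 6.91, 152 and 50.4 CPM in YAP1-MAMLD1-dR3R1 libraries, of which replicate 1 was far the lowest. The invariant chain Cd74 stood at 1081, 406 and 852 CPM against 2502, 11691 and 6660.1 CPM and did not pass despite groups that did not overlap (log2 fold change −3.16 ± 1.20, edgeR adjusted p = 0.0752). Cd74 was named after its value was seen.

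Homeostatic microglia genes, which mark the resident macrophages of the brain, were called lower in 14 of 16 cases (5, 8, 9, 15, 6 and 6 called). That was 87.5%, against 13.5% of all genes, and the median was −2.04. The mean log2 CPM of the list was 6.24, 6.38 and 5.94 in YAP1-FAM118B libraries, 7.62, 8.11 and 8.44 in YAP1-MAMLD1-dR3R1 libraries and 4.43, 4.54 and 4.31 in naive cortex, and no member was without counts. Trem2, a lipid-sensing receptor of microglia (chromosome 17, 48346401 to 48352276), stood at 38.8, 38.03 and 27.02 CPM against 198, 334 and 297 CPM, a difference of −2.996 ± 0.40 (SE; edgeR adjusted p = 0.00354) between groups that did not overlap. The purinergic receptor P2ry13 was lower, at −2.42 ± 0.47 (edgeR adjusted p = 0.00928). The exceptions, named for that reason after their values were seen, were Fcrls at −0.19, with 593, 18.7 and 45.9 CPM in YAP1-MAMLD1-dR3R1 libraries against 162, 215 and 199.8 CPM, and Sparc at 0.01, a matrix protein that tumour and stromal cells also make. The antigen presentation, interferon and complement lists differed between the groups in the same direction as this list. Within a group their levels did not follow its order of libraries. The part of the microglia list in those results was not tested.

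Activated microglia and macrophage genes were called lower in 9 of 18 cases and higher in none (6, 7, 7, 11, 5 and 6 called). That was 50%, against 13.5% of all genes lower, and the median was −1.44. Apoe, the lipid carrier of glia (chromosome 7, 19696244 to 19701310), stood at 1378, 1777 and 1493 CPM against 8817, 4562 and 5621 CPM, with 1199 ± 109.5 CPM (SD, n = 3) in naive cortex. Its difference was −2.03 ± 0.37 (SE; edgeR adjusted p = 0.00807), and the groups did not overlap. Gpnmb, a glycoprotein of lipid-laden macrophages, and the tetraspanin Cd9 were lower, at −3.19 ± 0.59 and −1.95 ± 0.25 (edgeR adjusted p of 0.00817 and 0.0034). In contrast Cd68, a lysosomal protein of all macrophages named after its value was seen, stood at 161, 47.6 and 193 CPM against 217, 174 and 168 CPM, and the groups overlapped (log2 fold change −0.48 ± 0.45, edgeR adjusted p = 0.442). Spp1, osteopontin, named likewise, was at 1.81 ± 1.34 (edgeR adjusted p = 0.328).

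Complement genes were called lower in 10 of 18 members tested and higher in none (8, 8, 9, 10, 7 and 8), 55.6% against 13.5% of all genes lower. The chains of C1q, the recognition unit that microglia secrete, were all lower. C1qa (chromosome 4, 136895916 to 136898844) stood at 616, 562 and 542 CPM against 1903, 3308 and 2816 CPM, a difference of −2.22 ± 0.39 (SE; edgeR adjusted p = 0.00752). C1qb and C1qc were lower, at −2.001 ± 0.40 and −2.07 ± 0.41 (edgeR adjusted p of 0.0105 and 0.00999). C3, the central component, named after its value was seen, stood at 245, 43.99 and 63.1 CPM against 580.4, 2695 and 1072 CPM and was lower, at −3.63 ± 0.93 (edgeR adjusted p = 0.0218), a call that ended without YAP1-FAM118B replicate 2 or 3 or YAP1-MAMLD1-dR3R1 replicate 2 (edgeR adjusted p of 0.0703, 0.062 and 0.0787). C4b was lower, at −3.01 ± 0.64 (edgeR adjusted p = 0.0121), although its reads cannot be told apart from those of a near-identical copy.

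Chemokines and cytokines were mostly lower where called, and Ccl21a had no count in the 6 libraries. Of 29 members tested 9 were lower and 1 higher (2, 2, 2, 10, 2 and 2 called), 34.5% against 26.2% of all genes. The median was −0.74, or −1.26 without YAP1-FAM118B replicate 1 and −0.23 without YAP1-MAMLD1-dR3R1 replicate 1. Cx3cl1, fractalkine, the neuronal ligand of the microglial receptor CX3CR1 (chromosome 8, 94772180 to 94782427), was the member called higher. It stood at 509, 649 and 379 CPM against 115, 101 and 55.2 CPM, with 747 ± 188 CPM (SD, n = 3) in naive cortex, and the difference was 2.50 ± 0.32 (SE; edgeR adjusted p = 0.00338). Cx3cr1, the receptor, named after its value was seen, stood at 168, 201 and 188 CPM against 699.6, 1163 and 1252 CPM and was lower, at −2.48 ± 0.50 (edgeR adjusted p = 0.0106), so that ligand and receptor were called in opposite directions. Ccl5, a T cell attractant, was lower, at −4.12 ± 1.01 (edgeR adjusted p = 0.0189), and the call ended without YAP1-FAM118B replicate 1, 2 or 3 or YAP1-MAMLD1-dR3R1 replicate 2 (edgeR adjusted p of 0.0515, 0.0606, 0.0505 and 0.0632). Cxcl13, the attractant of B cells, was lower, at −3.003 ± 0.77 (edgeR adjusted p = 0.022), and its call ended without YAP1-FAM118B replicate 1 or 3 or YAP1-MAMLD1-dR3R1 replicate 2 or 3 (edgeR adjusted p of 0.0788, 0.0641, 0.0697 and 0.0555).

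Lymphocyte genes were highest in YAP1-MAMLD1-dR3R1 replicates 2 and 3. The T, NK and cytotoxic list had a mean log2 CPM of 0.44, 3.30 and 2.95 in YAP1-MAMLD1-dR3R1 libraries and 0.33, −0.69 and −0.98 in YAP1-FAM118B libraries, so that replicate 1 of the former stood beside the latter. Its median was −3.95, but only 3 of 19 members were called, all lower (1, 1, 1, 10, 0 and 1), 15.8% against 13.5% of all genes lower. These were the kinase Lck, the interleukin receptor chain Il2rb and the NK receptor Klrb1c. Lck, which starts T cell receptor signalling, stood at 2.67, 2.06 and 1.34 CPM against 4.04, 30.9 and 22.7 CPM, a difference of −3.24 ± 0.75 (SE; edgeR adjusted p = 0.0159, or 0.0542 without YAP1-FAM118B replicate 2 and 0.0568 without YAP1-MAMLD1-dR3R1 replicate 2). B cell and plasma cell genes were lower in 3 of 7 cases (1, 0, 0, 5, 0 and 0), 42.9% against 13.5% of all genes. Jchain, which joins antibody units, stood at 0.493, 0.839 and 0.738 CPM against 10.99, 106 and 78.7 CPM, with a difference of −6.55 ± 1.74 (edgeR adjusted p = 0.0247). It was no longer called without any YAP1-FAM118B library or without YAP1-MAMLD1-dR3R1 replicate 2 or 3 (edgeR adjusted p of 0.0824, 0.0772, 0.0646, 0.0651 and 0.0564). Of 18 monocyte and border macrophage genes 2 were lower and 1 higher (0, 2, 1, 5, 0 and 0 called), 16.7% against 26.2% of all genes. Of 5 neutrophil genes tested 1 was lower, 20% against 13.5% of all genes lower. It was Csf3r, the G-CSF receptor, at −3.19 ± 0.51 (edgeR adjusted p = 0.00607).

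Genes of lysosomes and of the TFE programme that drives their formation were lower in YAP1-FAM118B tumours in 13 of 28 cases and higher in 3 (11, 10, 16, 15, 10 and 12 called). That was 57.1% called, against 26.2% of all genes, and the median was −0.49. Ctsd, the aspartic protease cathepsin D (chromosome 7, 142375910 to 142387827), stood at 1332, 1722 and 988 CPM against 4598, 4864 and 4292 CPM, with 397 ± 15.5 CPM (SD, n = 3) in naive cortex. The groups did not overlap, and the difference was −1.77 ± 0.23 (SE; edgeR adjusted p = 0.00346). The membrane protein Lamp1 was lower, at −1.16 ± 0.16 (edgeR adjusted p = 0.0038). Going the other way, 2 subunits of the proton pump, Atp6v1h and Atp6v0d1, which neurons also use to fill synaptic vesicles, were higher by 0.95 ± 0.14 and 0.62 ± 0.12 (edgeR adjusted p of 0.00524 and 0.00872). The mucolipin channel gene Mcoln1, the remaining higher member, named after its values were seen, stood at 50.5, 48.98 and 41.5 CPM against 36.2, 35.3 and 28.7 CPM. Part of this list (such as Gpnmb and Ctsd) is also abundant in microglia, whose list differed between the groups in the same direction. The part of microglia in the result was not tested.

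**Figure D3:**
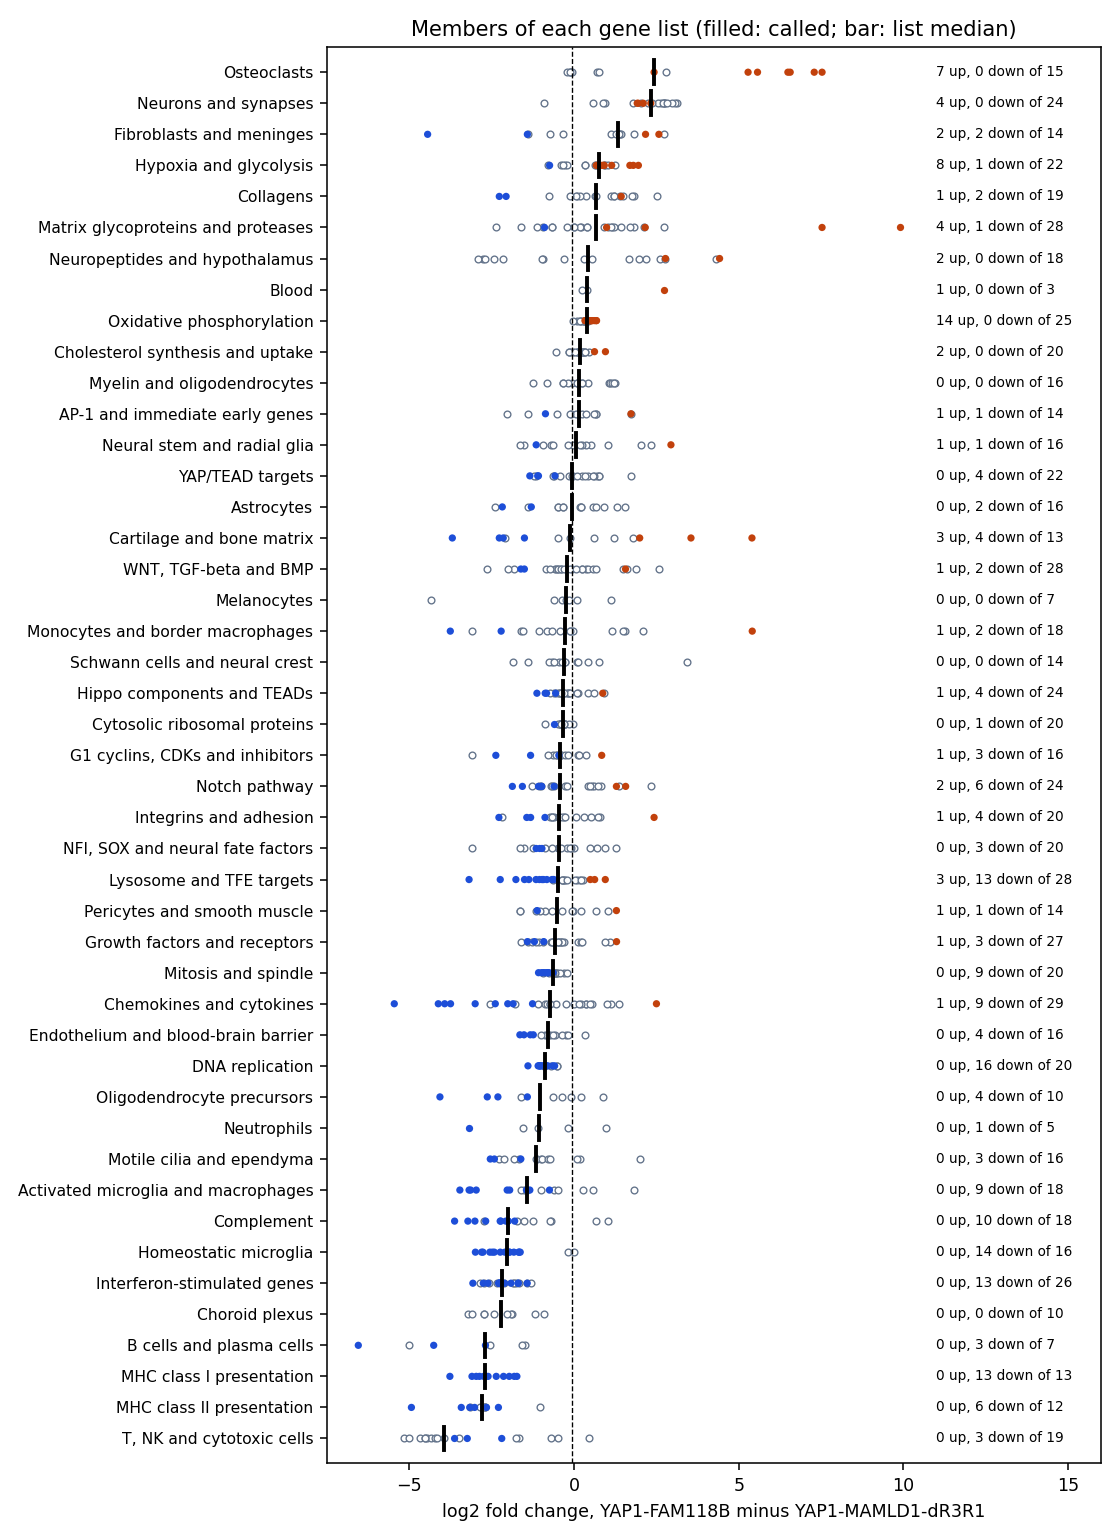
Log2 fold change, YAP1-FAM118B minus YAP1-MAMLD1-dR3R1, of every tested member of the 45 gene lists, ordered by median; filled points were called, open points were not, black bars are list medians and the dashed line is the median of all genes, −0.05. Osteoclast and neuron lists lie at the top, with medians of 2.43 and 2.33, and antigen presentation and lymphocyte lists at the bottom.

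Genes of DNA replication and mitosis were lower in YAP1-FAM118B tumours, with medians nearer to zero than those of the antigen presentation lists. The replication list had 16 of 20 members called lower (5, 6, 11, 18, 5 and 5), 80% against 13.5% of all genes. All 20 were below zero, with a median of −0.89. Mcm3, a subunit of the replicative helicase (chromosome 1, 20802966 to 20820312), stood at 35.1, 28.2 and 28.4 CPM against 61.02, 94.7 and 86.4 CPM, with 3.66 ± 0.630 CPM (SD, n = 3) in naive cortex, and was lower, at −1.40 ± 0.22 (SE; edgeR adjusted p = 0.00571). The helicase subunits Mcm2, Mcm4 and Mcm7 were lower, at −1.03, −1.04 and −0.92, and YAP1-FAM118B libraries lay below all YAP1-MAMLD1-dR3R1 libraries for each. The mitosis list had 9 of 20 members called lower (0, 3, 5, 14, 0 and 0), 45% against 13.5% of all genes, with all 20 below zero and a median of −0.65. Top2a, the topoisomerase that untangles chromosomes, stood at 74.3, 78.7 and 71.4 CPM against 105, 188 and 181 CPM, a difference of −1.08 ± 0.25 (SE; edgeR adjusted p = 0.0161). That call ended without YAP1-FAM118B replicate 1 or YAP1-MAMLD1-dR3R1 replicate 2 or 3 (edgeR adjusted p of 0.0545, 0.0742 and 0.0642). In naive cortex the mean log2 CPM of the mitosis list was 0.71, 0.54 and 0.54, far below the 4.37, 4.42 and 4.39 of YAP1-FAM118B libraries and the 4.64, 5.16 and 5.32 of YAP1-MAMLD1-dR3R1 libraries.

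Among the G1 regulators Ccnd1 had the smallest adjusted p. It encodes cyclin D1, which with CDK4 or CDK6 opens the way into the cell cycle (chromosome 7, 144929931 to 144939831). Ccnd1 stood at 167, 198 and 149 CPM in YAP1-FAM118B libraries and 569, 1003 and 1095 CPM in YAP1-MAMLD1-dR3R1 libraries, with 67.5 ± 2.18 CPM (SD, n = 3) in naive cortex. The highest YAP1-FAM118B library was below the lowest of the other group, and the difference was −2.38 ± 0.24 (SE; edgeR adjusted p = 0.00253), between −2.61 and −2.14 when single libraries were left out. Of the list's 16 members 3 were lower and 1 higher (2, 3, 3, 6, 2 and 4 called), 25% against 26.2% of all genes. The CDK inhibitor Cdkn2c, p18, was lower, at −1.32 ± 0.24 (edgeR adjusted p = 0.00824). Cyclin E1, Ccne1, was higher by 0.84 ± 0.23 (edgeR adjusted p = 0.0262), with 16.5, 16.6 and 13.1 CPM against 9.20, 7.49 and 9.09 CPM and 17.1 as the naive mean. The adjusted p of Ccne1 was 0.078 without YAP1-FAM118B replicate 1, 0.0764 without replicate 2 and 0.0518 without YAP1-MAMLD1-dR3R1 replicate 2.

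**Figure D4:**
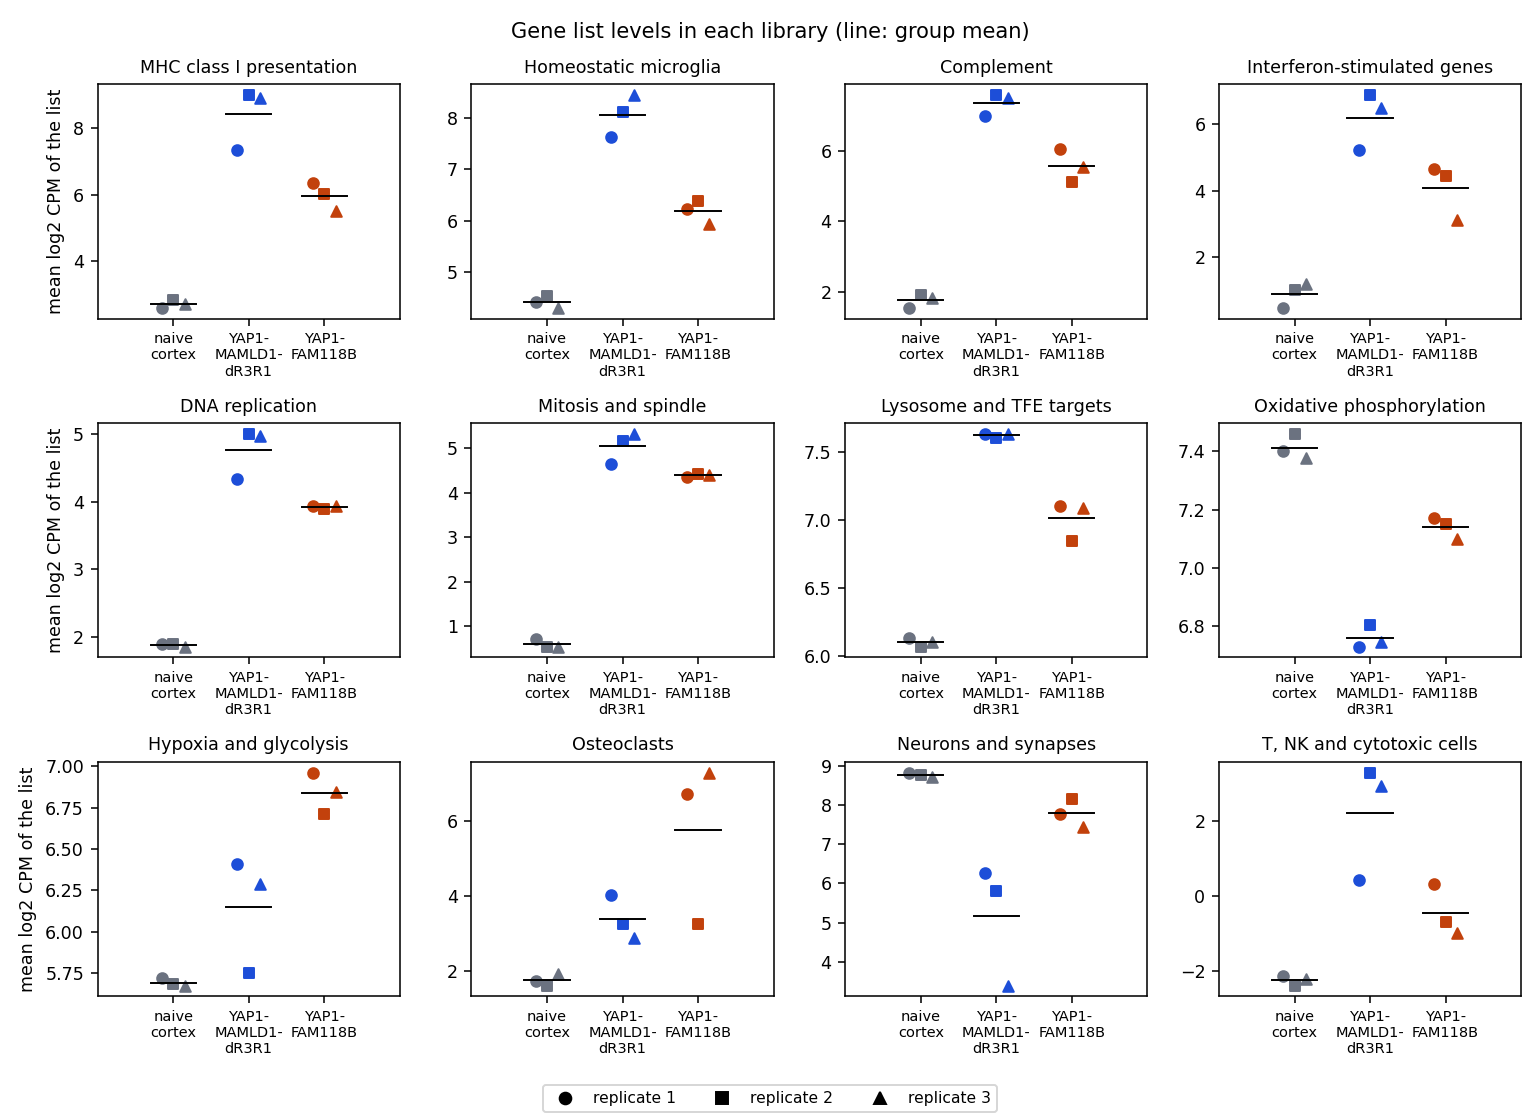
Mean log2 CPM of 12 gene lists in each library of naive cortex, YAP1-MAMLD1-dR3R1 and YAP1-FAM118B tumours; symbols mark replicates and lines the group means. YAP1-FAM118B replicate 2 has an osteoclast level of 3.26, inside the range of the YAP1-MAMLD1-dR3R1 libraries, against 6.73 and 7.30 in replicates 1 and 3.

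Genes of osteoclasts, the bone-resorbing cells of the macrophage lineage, were high in YAP1-FAM118B replicates 1 and 3 only. Of 15 members tested 7 were higher and none lower (5, 9, 5, 7, 1 and 2 called), 46.7% against 12.7% of all genes higher. Their median was 2.43, but the groups did not overlap for only 3 members, against 48.8% of all genes. The median was 0.92 without YAP1-FAM118B replicate 3 and 3.75 without YAP1-MAMLD1-dR3R1 replicate 2. Ctsk, cathepsin K, the collagenase of osteoclasts (chromosome 3, 95499210 to 95509387), stood at 2137, 22.2 and 3697 CPM in YAP1-FAM118B replicates 1 to 3 and 26.1, 4.59 and 6.61 CPM in YAP1-MAMLD1-dR3R1 replicates 1 to 3. Acp5, tartrate-resistant acid phosphatase (chromosome 9, 22126727 to 22135746), stood at 2055, 22.8 and 2744 CPM against 55.7, 27.1 and 18.8 CPM. For both genes YAP1-FAM118B replicate 2 lay within the range of the other group, whereas replicates 1 and 3 were far above it. The differences were 7.29 ± 1.65 (SE) and 5.57 ± 1.33 (edgeR adjusted p of 0.0148 and 0.0174). Without YAP1-FAM118B replicate 2 they were 7.87 and 6.15 (edgeR adjusted p of 0.0101 and 0.00649). Both calls ended without YAP1-MAMLD1-dR3R1 replicate 2 or 3 (edgeR adjusted p of 0.0576 and 0.0559 for Ctsk and of 0.0666 and 0.0636 for Acp5).

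Several other osteoclast genes were likewise highest in YAP1-FAM118B replicates 1 and 3. Oscar, an osteoclast receptor for collagen, stood at 28.2, 1.26 and 52.1 CPM against 0.427, 0.0483 and 0.355 CPM, a difference of 6.56 ± 1.35 (edgeR adjusted p = 0.011). The fusion protein gene Ocstamp stood at 29.8, 1.05 and 51.1 CPM against 0.854, 0 and 0 CPM. Its difference was 6.49 ± 1.55 (edgeR adjusted p = 0.0176, or 0.0571 and 0.0518 without YAP1-MAMLD1-dR3R1 replicates 2 and 3). Tnfrsf11a, the receptor RANK that macrophage precursors also carry, was not called, at 29.1, 9.23 and 47.04 CPM against 39.9, 22.3 and 29.2 CPM. Nfatc1, the master transcription factor of osteoclasts, stood at 111, 16.6 and 169 CPM against 48.3, 58.04 and 68.02 CPM, with replicate 2 below and replicates 1 and 3 above the other group (log2 fold change 0.77 ± 0.59, edgeR adjusted p = 0.343). Tnfrsf11a and Nfatc1 were named after their values were seen, as was Ibsp, bone sialoprotein, which was too low in most libraries to be tested. Ibsp stood at 36.9, 0.378 and 62.1 CPM in YAP1-FAM118B libraries and had no count in YAP1-MAMLD1-dR3R1 libraries. Siglec15, an osteoclast receptor of the list, was likewise too low to be tested.

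Among the 12 higher genes named by fold change, Mmp13 had the largest. Mmp13, a collagenase of cartilage, bone and wounds (chromosome 9, 7272514 to 7283333), stood at 853, 7.64 and 1208 CPM against 1.28, 0.0966 and 0.709 CPM, with 0.0274 as the naive mean. All 3 YAP1-FAM118B libraries were above all YAP1-MAMLD1-dR3R1 libraries, although replicate 2 held far less than replicates 1 and 3, and the difference was 9.91 ± 1.80 (SE; edgeR adjusted p = 0.00799). Mmp9, gelatinase B, which osteoclasts and neutrophils release, stood at 2279.5, 23.3 and 3424 CPM against 25.8, 2.71 and 2.39 CPM and was higher by 7.53 ± 1.67 (edgeR adjusted p = 0.0137, or 0.0533 without YAP1-MAMLD1-dR3R1 replicate 2), with replicate 2 inside the other group. Mmp10, stromelysin 2, stood at 12.3, 2.10 and 7.15 CPM against 0.233, 0.0966 and 0 CPM, a difference of 5.92 ± 0.98 (edgeR adjusted p = 0.00832). The whole list of matrix glycoproteins and proteases had 4 of 28 higher and 1 lower (2, 4, 4, 9, 2 and 2 called), 17.9% against 26.2% of all genes. Its median was 0.66 (0.19 without YAP1-FAM118B replicate 3), and the groups did not overlap for 5 members, against 48.8% of all genes. The window before the start of Mmp13, chr9:7272264-7272513 on the plus strand (RefSeq, GRCm38.p6), is shown because Mmp13 had that fold change, with the AP-1 letters TGANTCA in capitals, searched on both strands.
Mmp13: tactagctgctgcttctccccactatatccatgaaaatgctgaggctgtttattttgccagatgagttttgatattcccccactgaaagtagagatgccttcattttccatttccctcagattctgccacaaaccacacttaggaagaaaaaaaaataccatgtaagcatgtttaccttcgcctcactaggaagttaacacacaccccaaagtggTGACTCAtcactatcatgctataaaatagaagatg
The match lies 35 to 29 bases before the start. These letters were in 2 of 16 matrix genes with an entry (12.5%) and in none of 8 osteoclast genes, against 7.82% of all genes.

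Collagens had few calls, with 1 of 19 higher and 2 lower (2, 4, 1, 3, 2 and 1 called), 15.8% against 26.2% of all genes. The median was 0.68, which was 1.18 and 0.32 without YAP1-FAM118B replicates 2 and 3 and 1.10 without YAP1-MAMLD1-dR3R1 replicate 3. Their mean log2 CPM was 8.84, 7.09 and 9.20 in YAP1-FAM118B libraries and 7.97, 7.69 and 8.43 in YAP1-MAMLD1-dR3R1 libraries, so that YAP1-FAM118B replicate 2 was the lowest and replicates 1 and 3 the highest of the 6. Col1a1, the main collagen of bone and scar, named after its value was seen, stood at 3624, 660.2 and 4969 CPM against 1656, 645 and 1202 CPM (log2 fold change 1.40 ± 0.77, edgeR adjusted p = 0.193). Cartilage and bone matrix genes went both ways, with 3 of 13 members tested higher and 4 lower (3, 3, 5, 8, 4 and 4 called), 53.8% against 26.2% of all genes. Col10a1, the collagen of hypertrophic cartilage (chromosome 10, 34389981 to 34397085), stood at 69.8, 4.11 and 130 CPM against 2.95, 0.483 and 1.33 CPM, a difference of 5.40 ± 1.13 (SE; edgeR adjusted p = 0.0117) without overlap. Col2a1 and Col9a3, collagens of cartilage, were lower, at −2.27 ± 0.55 and −2.06 ± 0.42 (edgeR adjusted p of 0.018 and 0.0107). Col2a1 lost its call without YAP1-FAM118B replicate 2 or 3 or YAP1-MAMLD1-dR3R1 replicate 3 (edgeR adjusted p of 0.0634, 0.0502 and 0.0777). Alpl, the alkaline phosphatase of bone and vessels, stood at 8.50, 3.61 and 10.9 CPM against 87.6, 188 and 23.5 CPM and was lower, at −3.70 ± 0.85 (edgeR adjusted p = 0.0155). Its adjusted p was 0.0538, 0.0555 and 0.0569 without YAP1-FAM118B replicate 1, replicate 2 and YAP1-MAMLD1-dR3R1 replicate 2.

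Integrins and adhesion genes had 4 of 20 lower and 1 higher (1, 4, 3, 4, 3 and 1 called), 25% against 26.2% of all genes. Itgb5, a subunit of vitronectin receptors (chromosome 16, 33829665 to 33949338), stood at 252, 198 and 281 CPM against 565, 651 and 765 CPM and was lower, at −1.44 ± 0.17 (SE; edgeR adjusted p = 0.00265). Itgb3, the partner chain of osteoclasts and platelets, was the higher member at 2.43 ± 0.74 (edgeR adjusted p = 0.0383), and YAP1-FAM118B replicate 2, with 13.8 CPM, lay below all YAP1-MAMLD1-dR3R1 libraries. Without that library the call held, whereas the adjusted p was 0.0937 and 0.106 without YAP1-FAM118B replicates 1 and 3 and 0.0833, 0.101 and 0.083 without each YAP1-MAMLD1-dR3R1 library. With all 6 libraries kept, the adjusted p was 0.0912 in a fit of only these groups, 0.0732 in a fit of the tumours without naive and 0.0643 with the replicate number as a block. Of 14 fibroblast and meningeal genes 2 were called higher and 2 lower (2, 3, 2, 3, 2 and 3 called), 28.6% against 26.2% of all genes. Their median was 1.32, with 9 members above zero and 5 below, and it stayed between 0.957 and 1.42 with single libraries left out. The groups did not overlap for 5 members, against 48.8% of all genes. Ptgds, a prostaglandin D synthase of meninges and oligodendrocytes (chromosome 2, 25466709 to 25470110), stood at 524, 496 and 335 CPM against 127, 101 and 73.2 CPM, with 763 ± 266 CPM (SD, n = 3) in naive cortex, and was higher by 2.17 ± 0.43 (edgeR adjusted p = 0.00997). Aldh1a2, which makes retinoic acid (chromosome 9, 71215789 to 71296243), stood at 18.7, 4.28 and 7.19 CPM against 154, 281 and 223 CPM and was lower, at −4.45 ± 0.71 (edgeR adjusted p = 0.00595).

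Neuronal genes had mostly higher values in YAP1-FAM118B libraries, although few passed the test. The groups did not overlap for 21 of 24 members, against 48.8% of all genes, and the median was 2.33. However, only 4 were called, all higher (2, 1, 4, 6, 0 and 1), 16.7% against 12.7% of all genes higher. The mean log2 CPM of the list was 7.78, 8.15 and 7.45 in YAP1-FAM118B libraries, 6.27, 5.81 and 3.39 in YAP1-MAMLD1-dR3R1 and 8.83, 8.77 and 8.71 in naive libraries. YAP1-MAMLD1-dR3R1 replicate 3 was thus the lowest by far, and every YAP1-FAM118B library lay between all YAP1-MAMLD1-dR3R1 libraries and naive cortex. Dlg4, the postsynaptic scaffold PSD-95 (chromosome 11, 70017203 to 70045535), stood at 449.7, 505 and 338 CPM against 143, 102 and 55.9 CPM, a difference of 2.10 ± 0.48 (SE; edgeR adjusted p = 0.0151, or 0.0571 and 0.0547 without YAP1-MAMLD1-dR3R1 replicates 2 and 3). The synaptic vesicle proteins Syn2 and Vamp2 were higher by 1.95 ± 0.47 and 1.92 ± 0.49 (edgeR adjusted p of 0.0177 and 0.0222). Syn2 lost its call without YAP1-FAM118B replicate 2 (0.0572 as the adjusted p) and YAP1-MAMLD1-dR3R1 replicate 2 (0.0592), and Vamp2 without YAP1-FAM118B replicates 1 and 2 (0.0549 and 0.069) and YAP1-MAMLD1-dR3R1 replicates 2 and 3 (0.0666 and 0.0758). Snap25, a vesicle fusion protein named after its value was seen, stood at 1421, 1723 and 1318 CPM against 271, 222 and 16.6 CPM and did not pass (log2 fold change 3.13 ± 1.26, edgeR adjusted p = 0.0875).

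Several of the most abundant genes called higher at least 2-fold are known for high expression in neurons. Camk2n1, an inhibitor of the kinase CaMKII (chromosome 4, 138455148 to 138460126), stood at 1291, 1224 and 1081 CPM against 208, 248 and 92.5 CPM, with 1455 ± 725 CPM (SD, n = 3) in naive cortex, a difference of 2.71 ± 0.57 (SE; edgeR adjusted p = 0.0115). The calmodulin gene Calm3 was higher by 1.15 ± 0.16 (edgeR adjusted p = 0.00383), and YAP1-FAM118B libraries lay above all YAP1-MAMLD1-dR3R1 libraries. Of 18 neuropeptide and hypothalamic genes 2 were higher and none lower (0, 0, 2, 0, 1 and 0 called), 11.1% against 12.7% of all genes higher. Vip, the vasoactive intestinal peptide, stood at 25.7, 28.96 and 31.8 CPM against 1.55, 2.22 and 0.266 CPM, with 28.5 as the naive mean and a difference of 4.42 ± 1.37 (edgeR adjusted p = 0.0403), and its call ended whichever library was left out (edgeR adjusted p of 0.0715 to 0.115).

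Many subunits of oxidative phosphorylation, the respiratory chain of mitochondria with its ATP synthase, were higher in YAP1-FAM118B tumours by small amounts. Of 25 members 14 were higher and none lower (3, 5, 11, 11, 14 and 10), with a median of 0.38. That was 56%, against 12.7% of all genes higher and 26.2% called in either direction. The groups did not overlap for 22 members, against 48.8% of all genes. The mean log2 CPM was 7.17, 7.15 and 7.10 in YAP1-FAM118B libraries, 6.73, 6.80 and 6.75 in YAP1-MAMLD1-dR3R1 and 7.40, 7.46 and 7.38 in naive libraries, so both tumours lay below naive cortex. Ndufs1, the largest subunit of complex I (chromosome 1, 63143592 to 63176822), stood at 151, 154 and 140.4 CPM against 101, 89.3 and 86.8 CPM, a difference of 0.68 ± 0.11 (SE; edgeR adjusted p = 0.00606). The cytochrome oxidase subunits Cox5a and Cox7a2 were higher by 0.51 ± 0.11 and 0.55 ± 0.10 (edgeR adjusted p of 0.0121 and 0.00872). The neuron list, given above, moved in the same direction, and its part in the difference was not tested.

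Hypoxia and glycolysis genes were higher in 8 of 22 cases and lower in 1 (6, 8, 9, 11, 7 and 9 called). That was 40.9% called, against 26.2% of all genes, and the median was 0.76. The neuron list, given above with a median of 2.33, lay in the same direction, and its part in this result was not tested. Bnip3, a mitophagy receptor induced by hypoxia (chromosome 7, 138890836 to 138909506), stood at 169, 119 and 186 CPM against 44.9, 26.6 and 64.8 CPM, with 90.3 ± 14.2 CPM (SD, n = 3) in naive cortex, and was higher by 1.80 ± 0.31 (SE; edgeR adjusted p = 0.00719). Slc2a3, the neuronal glucose transporter GLUT3 (chromosome 6, 122727809 to 122802363), stood at 112, 173 and 96.98 CPM against 48.2, 41.2 and 28.7 CPM, a difference of 1.69 ± 0.26 (edgeR adjusted p = 0.00563). The hexokinases were called in opposite directions. Hk1, the form of normal brain, was higher by 0.92 ± 0.16 (edgeR adjusted p = 0.0071), whereas Hk2, the inducible form, stood at 69.7, 53.2 and 60.7 CPM against 87.96, 96.5 and 123 CPM and was lower, at −0.74 ± 0.15 (edgeR adjusted p = 0.01, or 0.0503 without YAP1-MAMLD1-dR3R1 replicate 3). Naive cortex held 409 CPM of Hk1 and 4.02 CPM of Hk2. Car9, named after its value was seen, carbonic anhydrase 9, a classic target of hypoxia-inducible factor with little expression in normal brain, stood at 18.02, 12.3 and 24.4 CPM against 4.11, 3.48 and 6.52 CPM, with 0.741 as the naive mean, and was higher by 1.95 ± 0.49 (edgeR adjusted p = 0.02), a call that ended without YAP1-FAM118B replicate 1 or 3 or YAP1-MAMLD1-dR3R1 replicate 2 (edgeR adjusted p of 0.0546, 0.0537 and 0.0662).

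**Figure D5:**
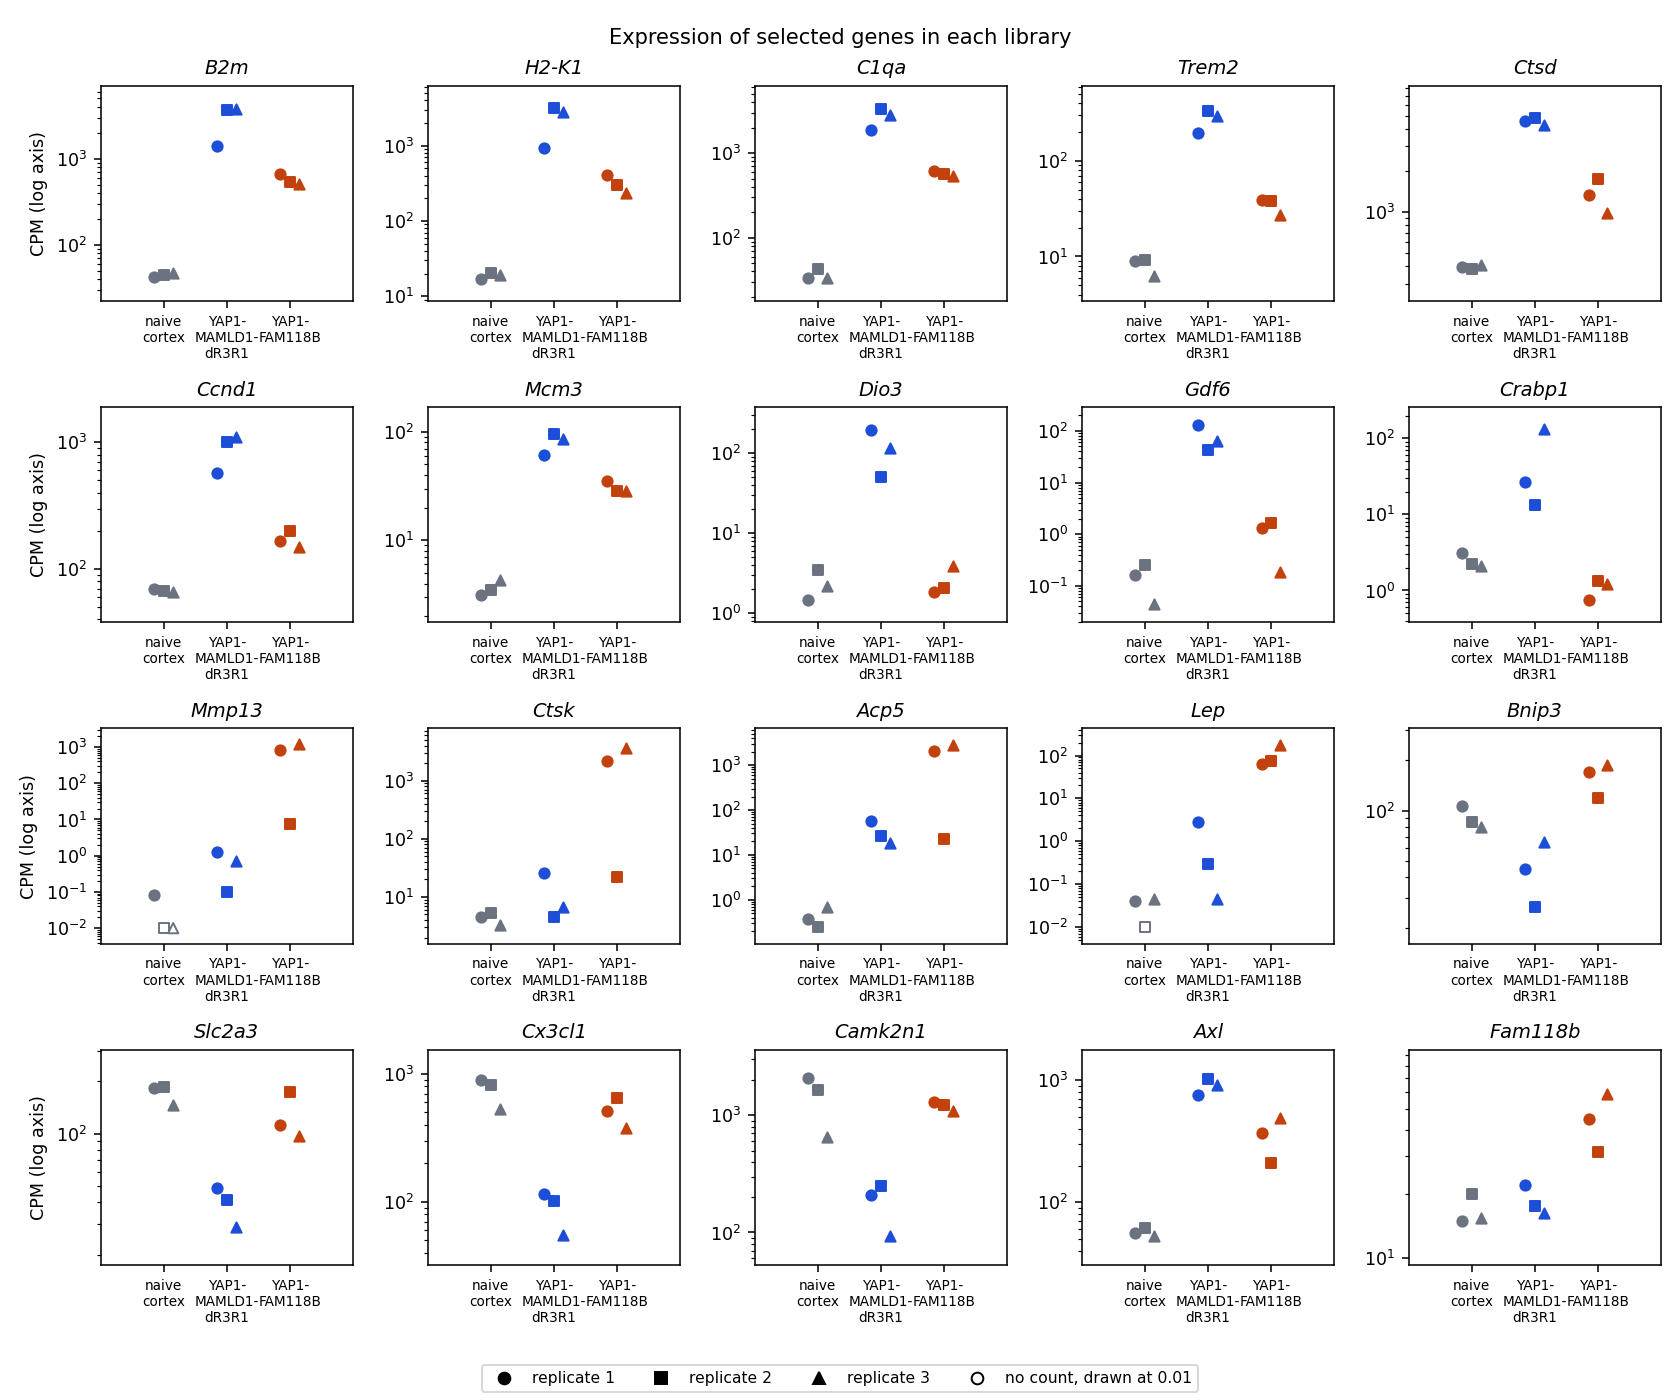
CPM of 20 genes in each library of naive cortex, YAP1-MAMLD1-dR3R1 and YAP1-FAM118B tumours, on logarithmic axes, with open symbols for libraries without a count drawn at 0.01. Ccnd1 lies between 149 and 198 CPM in YAP1-FAM118B libraries and at 569 CPM or more in YAP1-MAMLD1-dR3R1 libraries, while Ctsk and Acp5 are high only in YAP1-FAM118B replicates 1 and 3.

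The genes lower in YAP1-FAM118B tumours by the largest fold changes included Dio3, Gdf6 and Crabp1. Dio3, the deiodinase that inactivates thyroid hormone (chromosome 12, 110279230 to 110281097), stood at 1.85, 2.10 and 3.87 CPM in YAP1-FAM118B libraries, 196, 50.8 and 115 CPM in YAP1-MAMLD1-dR3R1 libraries and 2.40 ± 1.03 CPM (SD, n = 3) in naive cortex, so that YAP1-FAM118B tumours were near the naive level. Its difference between the tumours was −5.53 ± 0.69 (SE; edgeR adjusted p = 0.00303). Gdf6, a BMP-type growth factor (chromosome 4, 9844372 to 9862345), stood at 1.31, 1.68 and 0.184 CPM against 128, 42.9 and 64.2 CPM, a difference of −6.19 ± 0.99 (edgeR adjusted p = 0.00607). Crabp1, a retinoic acid carrier of the embryo (chromosome 9, 54764748 to 54773110), stood at 0.739, 1.34 and 1.20 CPM against 26.5, 13.2 and 133 CPM, a difference of −5.71 ± 0.86 (edgeR adjusted p = 0.00515). The WNT antagonist Sfrp5 was lower, at −5.55 ± 1.07 (edgeR adjusted p = 0.00918), and the doublesex-related factor Dmrtb1 at −6.31 ± 1.30 (edgeR adjusted p = 0.011). Clca3a2 had a difference of −6.55 ± 0.98 (edgeR adjusted p = 0.00515), with reads that cannot be told apart from those of near-identical neighbours.

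In the other direction, Lep, Pkp1 and Hoxb9 were among the genes higher in YAP1-FAM118B tumours by the largest fold changes. Lep, the hormone leptin of fat tissue (chromosome 6, 29060221 to 29073876), stood at 63.5, 74.2 and 175 CPM in YAP1-FAM118B libraries and 2.87, 0.290 and 0.0443 CPM in YAP1-MAMLD1-dR3R1 libraries, with 0.0283 as the naive mean. It was high in all 3 YAP1-FAM118B libraries, and the difference was 6.56 ± 1.23 (SE; edgeR adjusted p = 0.0085). Pkp1, plakophilin 1 of epithelial desmosomes (chromosome 1, 135871394 to 135919207), stood at 35.5, 17.04 and 53.9 CPM against 1.13, 0 and 0 CPM, a difference of 6.48 ± 1.25 (edgeR adjusted p = 0.00909). Hoxb9, a homeobox gene of the posterior body, stood at 4.80, 5.37 and 12.1 CPM against 0.427, 0 and 0 CPM and was higher by 5.58 ± 1.28 (edgeR adjusted p = 0.0195, or 0.0559 without YAP1-MAMLD1-dR3R1 replicate 2). For Pkp1 and Hoxb9, as for Ocstamp above, YAP1-MAMLD1-dR3R1 replicate 1 was the only library of its group with a count. Without it the fitted differences were 12.65, 10.40 and 12.27, values that depend on the prior count and give no bound. Mst1r, the receptor kinase RON, stood at 27.6, 1.05 and 32.8 CPM against 0.543, 0.338 and 0.0443 CPM, with YAP1-FAM118B replicate 2 close to the other group, and its difference was 6.01 ± 1.16 (edgeR adjusted p = 0.00912). Tcap, telethonin of the muscle sarcomere, was higher by 5.94 ± 1.20 (edgeR adjusted p = 0.0106). Cilp, a protein of cartilage, held 39.4, 0.126 and 28.04 CPM in YAP1-FAM118B libraries and at most 0.0887 CPM in YAP1-MAMLD1-dR3R1 libraries.

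The Notch pathway, in which mastermind-like proteins join the Notch intracellular domain and RBPJ on DNA, had 8 of 24 members called (33.3%, against 26.2% of all genes), 6 lower and 2 higher (4, 8, 6, 9, 3 and 4 called). The median was −0.44, or −0.22 and −0.25 without YAP1-MAMLD1-dR3R1 replicates 2 and 3. Maml2, a mastermind co-activator (chromosome 9, 13296561 to 13709533), stood at 10.8, 14.6 and 10.4 CPM against 35.8, 41.2 and 54.4 CPM, with 13.6 ± 3.14 CPM (SD, n = 3) in naive cortex, a difference of −1.87 ± 0.22 (SE; edgeR adjusted p = 0.00269). The receptor Notch1 (chromosome 2, 26457902 to 26503822) stood at 45.4, 54.7 and 56.5 CPM against 80.6, 103 and 147 CPM and was lower, at −1.08 ± 0.20 (edgeR adjusted p = 0.00856). The effector Hey2 was lower, at −1.57 ± 0.24 (edgeR adjusted p = 0.00524) and Rbpj at −0.98 ± 0.22 (edgeR adjusted p = 0.0135, or 0.0714 and 0.0553 without YAP1-MAMLD1-dR3R1 replicates 2 and 3). The ligand Jag1 stood at 127, 71.1 and 171 CPM against 57.6, 27.7 and 39.4 CPM and was higher by 1.57 ± 0.39, and the receptor Notch3, known from mural cells, was higher by 1.29 ± 0.34 (edgeR adjusted p of 0.0195 and 0.0234). The adjusted p of Jag1 was 0.0554, 0.0543, 0.0757 and 0.0691 without YAP1-FAM118B replicates 1 and 3 and YAP1-MAMLD1-dR3R1 replicates 2 and 3. That of Notch3 was 0.0548, 0.0641 and 0.074 without YAP1-FAM118B replicates 1 and 3 and YAP1-MAMLD1-dR3R1 replicate 2, and its difference was 0.84 without YAP1-FAM118B replicate 3.

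Neural fate and signalling lists gave few calls, 10.7% to 15% of the members tested, against 26.2% of all genes. Of 20 NFI, SOX and fate factors 3 were lower (1, 4, 1, 5, 1 and 1), among them Id3, an inhibitor of bHLH factors, which stood at 82.5, 77.3 and 123 CPM against 189, 209.5 and 185 CPM, a difference of −1.04 ± 0.19 (SE; edgeR adjusted p = 0.00832, or 0.0557 without YAP1-MAMLD1-dR3R1 replicate 2). WNT, TGF-beta and BMP genes had 2 of 28 tested lower and 1 higher (0, 2, 1, 6, 2 and 0). The WNT antagonist Sfrp1 stood at 224, 248 and 327 CPM against 852, 585 and 1010.2 CPM and was lower, at −1.62 ± 0.36 (edgeR adjusted p = 0.0135, or 0.0536 without YAP1-FAM118B replicate 1 and 0.0617 without YAP1-MAMLD1-dR3R1 replicate 3). Growth factors and their receptors had 3 of 27 tested lower and 1 higher (0, 2, 2, 3, 1 and 2), AP-1 and immediate early genes 1 of 14 each way (0, 1, 1, 2, 1 and 1). Egr1, an early growth response factor of active neurons and stressed cells, was the higher member of the latter, with 202, 156 and 153 CPM against 35.7, 59.3 and 59.2 CPM and a difference of 1.73 ± 0.39 (edgeR adjusted p = 0.0151, or 0.0507 without YAP1-FAM118B replicate 1). Jun was the lower one at −0.87 ± 0.23 (edgeR adjusted p = 0.0244), and its call ended without any YAP1-FAM118B library or YAP1-MAMLD1-dR3R1 replicate 2 or 3 (edgeR adjusted p of 0.0646, 0.0599, 0.0665, 0.115 and 0.136).

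Of 10 oligodendrocyte precursor genes 4 were lower and none higher (1, 3, 2, 4, 1 and 1), 40% against 13.5% of all genes lower. Matn4, matrilin 4 of the perineuronal and precursor matrix (chromosome 2, 164389393 to 164405160), stood at 11.1, 23.9 and 5.53 CPM against 90.6, 248 and 343 CPM, with 10.5 ± 0.280 CPM (SD, n = 3) in naive cortex, a difference of −4.07 ± 0.63 (SE; edgeR adjusted p = 0.00556). Neural stem and radial glia genes had 1 of 16 in each direction (1, 3, 1, 4, 0 and 1), and astrocyte genes 2 of 16 lower (1, 1, 1, 4, 1 and 1). Each list thus had 12.5% called, against 26.2% of all genes. The astrocyte gene S100b was lower, at −1.30 ± 0.27 (edgeR adjusted p = 0.0116). Motile cilia and ependyma genes, of interest in a model of ependymoma, were called lower in 3 of 16 cases (0, 1, 1, 2, 1 and 1). That was 18.8%, against 13.5% of all genes lower and 26.2% called. Their median was −1.15, but −0.0961 without YAP1-MAMLD1-dR3R1 replicate 1. The mean log2 CPM of the list was 0.07, 0.67 and 0.08 in YAP1-FAM118B libraries and 2.08, 0.96 and −0.22 in YAP1-MAMLD1-dR3R1 libraries. These levels overlapped. Foxj1, the master factor of motile cilia (chromosome 11, 116330704 to 116335499), stood at 4.64, 9.70 and 5.49 CPM against 32.6, 23.97 and 49.5 CPM, with 10.3 ± 7.30 CPM (SD, n = 3) in naive cortex, and was lower, at −2.42 ± 0.54 (edgeR adjusted p = 0.0137, or 0.0538 without YAP1-FAM118B replicate 1). Endothelial genes were called lower in 4 of 16 cases (1, 3, 2, 4, 1 and 1). That was 25%, against 13.5% of all genes lower and 26.2% called. The receptor kinase Tie1 led them at −1.52 ± 0.30 (edgeR adjusted p = 0.00948). Pericyte and smooth muscle genes had 1 of 14 in each direction (0, 1, 0, 3, 1 and 1), 14.3% against 26.2% of all genes.

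No member was called in the myelin list of 16, the Schwann cell and neural crest list of 14, the melanocyte list of 7 tested or the choroid plexus list of 10. At an unadjusted p under 0.05 edgeR gave 2, 2, 0 and 0 members of these lists, and DESeq2 called 2, 2, 0 and 0. The transferrin gene Trf, made by oligodendrocytes and choroid plexus, stood at 866, 720.1 and 676 CPM against 2225, 1236 and 1874 CPM, a difference of −1.24 ± 0.42 (edgeR adjusted p = 0.0521). Ttr of the choroid plexus had a difference of −3.21 ± 2.60 (edgeR adjusted p = 0.371), and YAP1-MAMLD1-dR3R1 replicate 1 was far above the other 5 libraries. Without that library the difference of Ttr turned to 3.98, and the median of the choroid plexus list turned from −2.23 to 1.93. Cytosolic ribosomal protein genes had 1 of 20 lower (0, 0, 3, 3, 0 and 0), 5% against 13.5% of all genes lower. It was Rps4x, whose reads cannot be told apart from those of processed copies. All 20 were below 0, with a median of −0.35, and the groups did not overlap for 2, against 48.8% of all genes. Cholesterol genes had 2 of 20 higher (1, 1, 2, 2, 1 and 2), 10% against 12.7% of all genes higher. Of the 3 blood genes tested 1 was higher (0, 0, 1, 1, 0 and 1), 33.3% against 12.7% of all genes higher. The globin genes Hba-a1, Hba-a2, Hbb-bs and Hbb-bt, which red blood cells express most, had no count in the 6 libraries, and neither had the neutrophil elastase gene Elane.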

How the data were processed

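Total RNA of 12 mouse samples was sequenced. The authors deposited unnormalized counts for each gene symbol, made with HTSeq. The submitters' processing notes name the build as mm10. Neither aligner nor annotation, strand setting or filter is given in the sources used here, and reads of overlapping, antisense or near-identical genes cannot be told apart. Of 24421 symbols, 24299 matched RefSeq (GRCm38.p6), which gave coordinates and promoter windows, and 4096 had no count in any library. After filterByExpr (minimum count 10) 16364 genes remained, and these were scaled by TMM in edgeR 4.0.16 (limma 3.58.1, R 4.3.3). The quasi-likelihood model held all 12 libraries and thus pooled the spread over 4 groups. YAP1-FAM118B minus YAP1-MAMLD1-dR3R1 was tested with Benjamini-Hochberg adjustment at 0.05 over all genes tested. The SE is the log2 fold change divided by the square root of F, log2 CPM used a prior count of 2, and promoter letters were searched in 250 bases before each RefSeq start. The level of 3 counts given per library covers counting error only.

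The 45 gene lists rest on textbook knowledge, and the comparison, its members and the lists were chosen with earlier results of these data known. Lists are described by counts and medians, with no test of a list. Named genes were the partner genes, per direction the 12 called genes of largest fold change (non-overlapping libraries, a mean of 5 CPM or more in the higher group), the 8 most abundant called at least 2-fold, and from each list up to 4 called members by adjusted p and up to 2 against the majority, or the 2 most abundant where none was called. Others are marked as named after their values were seen. Some genes that the rule names are not reported here. DESeq2 1.42.0 was run as an alternative, as were scaling by RLE, by upper quartile or by library size alone, testing without a filter, a filter of 1 CPM in 3 libraries, only the 2 groups compared, tumours without naive, the replicate number as a block, a test against 2-fold (glmTreat) and each of the 6 libraries left out. The test was first tested on simulated data.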

Additional observations from a re-analysis of the deposited data

How the results depend on the processing

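Every call of a gene kept its direction in the alternatives run, and the counts changed as follows. Against 4293 genes called, a fit of the tumours without naive called 2537 (1197 higher, 1340 lower), of which 2478 were among the 4293, and glmTreat against 2-fold called 8 (2 higher, 6 lower). DESeq2 called 6273. Upper-quartile factors put 40.2% of the calls in the higher direction and a filter of 1 CPM in 3 libraries 59.5%, against 48.6%. With 1 library left out, calls ranged from 1666 to 4676 (higher 979 to 2225, lower 626 to 2451).

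Counts under the other settings are given here for the replication, mitosis, hypoxia, oxidative phosphorylation, lysosome, interferon, class I, class II, complement, homeostatic microglia, osteoclast and neuron lists. Those of them that moved by over 1.5 times were these, and the remaining lists are not covered. DESeq2 called 16 mitosis genes, 22 interferon-stimulated genes, 10 class II genes and 14 neuronal genes. Upper-quartile factors called 20 interferon-stimulated genes. Tumours without naive gave 8 oxidative phosphorylation genes, 7 interferon-stimulated genes and 8 homeostatic microglia genes. Only the 2 groups compared gave 5 mitosis genes, 11 class II genes and 3 osteoclast genes. Under glmTreat 0 members were called in the replication, mitosis, hypoxia, oxidative phosphorylation, lysosome, interferon, class I, class II, complement, homeostatic microglia, osteoclast and neuron lists, where a change above 2-fold is required. The causes of the other shifts were not tested. With 1 library left out the calls ranged over 5 to 18 for replication, 0 to 14 for mitosis, 6 to 11 for hypoxia, 3 to 14 for oxidative phosphorylation, 10 to 16 for lysosome, 4 to 20 for interferon-stimulated genes, 8 to 13 for class I, 2 to 6 for class II, 7 to 10 for complement, 5 to 15 for homeostatic microglia, 1 to 9 for osteoclasts and 0 to 6 for neurons.

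Whether the replicate numbers pair the samples was not settled. The deviations of same-numbered libraries from their group means correlated at −0.0319, 0.16 and 0.205. Those numbered 2 and those numbered 3 correlated best with each other, and those numbered 1 did not. Deviations within such small groups cannot decide on a pairing. With the replicate block 4194 genes were called, 3745 of them shared, with 7 interferon-stimulated genes. With 3 counts at 0.117 to 0.145 CPM, depth limits statements on genes below that level.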
